A study of Homo sapiens with 9 samples.

Results

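Untreated MDA-MB-231 cells were described from the 5 control arrays of a series of 9 arrays, 3 of set 1 (controls 1A, 1B and 1C) and 2 of set 2 (controls 2A and 2B). The members were chosen by their labels, with both the title and the treatment tag naming control. The 4 arrays of cells given the lactate dehydrogenase inhibitor GNE-140 were left out, except in an alternative fit of all 9 arrays. MDA-MB-231 is an established cell line of triple-negative breast cancer, grown from a pleural effusion and widely used as a model of mesenchymal, invasive disease. The cells of both sets were kept in high glucose DMEM (4500 mg/L glucose) with 7% fetal bovine serum per the labels, and the common protocol runs for 24 h. The labels name no vehicle for the controls and no age or passage of the cells. One further label goes against the control status of set 2. The source name of control 2A names an extract of Boswellia serrata at 128 µg/ml and that of control 2B names 3-O-acetyl-β-boswellic acid at 46 µg/ml, whereas the source names of the 3 controls of set 1 say that nothing was given. The source names of the GNE-140 arrays hold the same concentrations, 128 µg/ml for both of set 1 and 46 µg/ml for both of set 2. The source name thus departs from title and treatment tag beyond the controls. The conflict over the controls of set 2 could not be settled, so levels are given by set or by array. Classes, which rest on all 5 arrays, are also counted on the 3 arrays of set 1, where this conflict does not arise. The labels and the paper also differ in the number of control arrays in each set, and the labels were followed here. Nothing says that the arrays came from separate cultures, so the spread between arrays may be technical.

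A cell line derived from a carcinoma can keep, lose or exchange the programme of its tissue. Epithelial cells hold together through E-cadherin, claudins and desmosomes and carry keratin filaments, whereas mesenchymal cells carry vimentin filaments, secrete fibronectin and move singly. Triple-negative tumours lack the estrogen and progesterone receptors and amplified ERBB2, and many of them depend on EGFR and on a high rate of glycolysis, in which lactate dehydrogenase turns pyruvate into lactate.

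The platform, GeneChip Human Gene 2.1 ST, places probes along each transcript, and the deposited table gives a log2 signal for 53617 probe sets. Of these, 23866 carried 1 gene symbol and stood for 22392 genes, 1852 carried several symbols and 27899 carried none. The sets lay on different scales, with array medians of 1.32 to 1.36 in set 1 and 2.27 in both arrays of set 2. Signals were therefore ranked within each array, and a percentile of 0 is the lowest and 100 the highest of the probe sets with 1 symbol. In set 1, 6664 probe sets (12.4%) had the same deposited value on all 3 controls, against 95 (0.177%) on both controls of set 2. A percentile depends on how well a probe set binds as well as on the amount of RNA, so the order of single genes is not an order of their transcript numbers. For 630 genes with more than 1 probe set, the probe set with the highest mean percentile was used, and their probe sets spanned a median of 14.2 points.

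A gene was called high when it reached the 95th percentile on all 5 arrays. Since no background probes are marked, the 432 probe sets of olfactory receptors, which are silent in most cells outside the nose, served as an empirical floor. The limit was the 95th percentile of these probe sets on each array, which lay between the percentiles 40.0 and 43.9. By these limits 822 genes (3.67%) were high on every array, 9903 (44.2%) were middle, 7372 (32.9%) were near background on every array and 4295 (19.2%) crossed a limit between arrays. Taking the 3 arrays of set 1 alone, 1035 genes were high, 10933 middle, 8306 near background and 2118 crossing. A middle rank close to the limit is not certain signal. The 99th percentile of the olfactory receptor probe sets lay between the percentiles 51.5 and 57.3. The 95th percentile of keratin-associated protein and taste receptor probe sets lay between 56.5 and 70.9. Low rank is not absence. The probe set of COX6A1, a subunit of cytochrome c oxidase that dividing cells use, lay at 16.2, 15.2 and 16.4 in set 1 and at 11.3 and 9.73 in set 2, and that of CFL1, the actin-severing protein cofilin, at 43.2, 43.5, 41.2, 45.4 and 29.9. Both were named after their values were seen.

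VIM, CD44, EGFR and ESR1 were in the direction known for MDA-MB-231, while CDH1 was below the background limit in set 2 and above it in set 1. VIM, the intermediate filament of mesenchymal cells, lay at the percentiles 98.6, 98.6 and 98.5 in set 1 and 96.8 and 96.9 in set 2. CD44, the hyaluronan receptor, lay at 98.1, 97.9 and 98.1 in set 1 and 96.4 and 96.8 in set 2, with a further probe set of the same gene at 78.2, 80.9, 81.7, 62.6 and 56.5. EGFR, the receptor of epidermal growth factor, lay at 97.4, 97.6 and 97.9 in set 1 and 95.2 and 95.4 in set 2. These 3 genes were thus in the highest 5% on every array, and in each of them both arrays of set 2 were below all arrays of set 1. ESR1, the estrogen receptor, lay at 26.6, 16.2 and 25.1 in set 1 and 15.1 and 21.5 in set 2, below the background limit on every array. CDH1, which encodes E-cadherin, lay at 52.6, 52.3 and 51.5 in set 1, above the limit, and at 26.5 and 38.7 in set 2, below it. The sets did not overlap in CDH1, and they put it on different sides of the limit. Its ranks in set 1 were near the low end of the 99th percentile of olfactory receptor probe sets (51.5 to 57.3). Signal of CDH1 above background is therefore not certain in set 1.

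The DNA just upstream of the gene's start is shown for 3 high markers and for 2 genes near background, because the classes differed in CpG content, as described further on. Each stretch is the 250 bases before the annotated start in RefSeq (GRCh38.p14), plus strand, with each CG in capitals. They are VIM (chr10:17227991-17228240, 8 CG), CD44 (chr11:35138921-35139170, 15 CG), EGFR (chr7:55018767-55019016, 25 CG), ESR1 (chr6:151656422-151656671, 3 CG) and PTPRC, the leukocyte common antigen CD45 (chr1:198638790-198639039, 1 CG).
VIM: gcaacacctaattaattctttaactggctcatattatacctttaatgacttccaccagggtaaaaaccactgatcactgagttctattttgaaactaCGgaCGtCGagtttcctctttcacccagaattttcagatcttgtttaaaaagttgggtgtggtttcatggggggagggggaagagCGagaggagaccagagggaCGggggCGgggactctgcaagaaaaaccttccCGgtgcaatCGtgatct
CD44: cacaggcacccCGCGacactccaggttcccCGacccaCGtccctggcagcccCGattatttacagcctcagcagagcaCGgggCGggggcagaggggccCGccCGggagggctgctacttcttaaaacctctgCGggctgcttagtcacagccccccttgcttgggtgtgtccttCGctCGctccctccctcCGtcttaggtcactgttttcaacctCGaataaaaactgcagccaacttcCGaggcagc
EGFR: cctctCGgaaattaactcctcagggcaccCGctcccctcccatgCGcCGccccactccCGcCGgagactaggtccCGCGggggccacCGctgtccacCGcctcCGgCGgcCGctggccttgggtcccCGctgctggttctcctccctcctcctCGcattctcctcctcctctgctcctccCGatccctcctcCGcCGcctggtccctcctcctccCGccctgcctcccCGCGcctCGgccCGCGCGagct
ESR1: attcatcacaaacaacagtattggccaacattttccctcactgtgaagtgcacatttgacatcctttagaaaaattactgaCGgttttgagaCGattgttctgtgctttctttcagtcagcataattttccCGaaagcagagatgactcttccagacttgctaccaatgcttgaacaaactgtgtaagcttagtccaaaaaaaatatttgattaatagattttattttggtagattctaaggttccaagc
PTPRC: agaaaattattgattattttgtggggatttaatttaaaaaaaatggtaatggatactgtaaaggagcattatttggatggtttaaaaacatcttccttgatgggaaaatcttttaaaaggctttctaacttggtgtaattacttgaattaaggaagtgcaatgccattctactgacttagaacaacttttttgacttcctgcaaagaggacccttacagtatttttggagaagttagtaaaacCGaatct
Over the 300 bases that also hold 50 after the start, the ratio of observed to expected CpG was 0.584 for VIM, 0.626 for CD44, 0.893 for EGFR, 0.410 for ESR1 and 0.122 for PTPRC. The ESR1 stretch belongs to the outermost start annotated for a gene with several promoters.

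Mesenchymal and invasive genes were the cell state list with the highest ranks. Of 30 measured, 13 were high on every array, 9 middle, 4 near background and 4 crossing, with a median percentile of 94.3 in set 1 and 93.4 in set 2, beside 49.8 and 50.0 over all genes. On the arrays of set 1 alone 15 were high. The high members held MSN (99.8 and 99.9 in the means of set 1 and set 2), the membrane and actin linker moesin, ANXA1 (99.5 and 99.7), MMP1 (99.4 and 99.7), the interstitial collagenase, and AXL (99.6 and 99.2), a receptor tyrosine kinase. FN1, fibronectin, lay at 99.5 on the 3 arrays of set 1 and at 98.1 and 98.3 in set 2. The transcription factors that repress epithelial genes took lower ranks. SNAI2 lay at 92.6, 92.5, 92.7, 88.3 and 88.8, ZEB1 at 77.7, 78.5, 77.6, 71.4 and 69.7, ZEB2 at 66.9, 66.3, 66.2, 61.6 and 62.3, and SNAI1 at 55.1, 55.8, 56.8, 51.2 and 56.5. All 4 were middle, but SNAI1 lay near the 99th percentile of olfactory receptor probe sets (51.5 to 57.3), so its signal is not certain. TWIST1 (22.4 and 15.8), TWIST2 (21.9 and 21.3) and CDH2 (27.3 and 28.8), the N-cadherin gene, were near background on every array. Thus VIM and FN1 were high and CDH2 near background in the same cells.

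Just over 50% of the epithelial adhesion genes were in the middle class, beside 44.2% of all genes. The medians of the list were near those of all genes. Of 26 measured, none was high, 14 were middle, 5 near background and 7 crossing, while 3.67% of all genes were high and 32.9% near background. The medians were 52.99 in set 1 and 47.5 in set 2, beside 49.8 and 50.0 over all genes. DSP, a desmosomal plaque protein, had means of 93.7 and 90.3, CLDN7, a tight junction claudin, 83.7 and 87.8, and MUC1, a membrane mucin, 85.6 and 83.0. EPCAM, an epithelial adhesion molecule, lay at 77.7, 77.9, 75.7, 78.2 and 82.3. ESRP1, an epithelial splicing regulator, and RAB25 (25.4 and 31.1), a small GTPase of epithelial cells, were near background on every array. MARVELD3 (25.8 and 27.5), a tight junction protein, was near background as well, so members of both kinds lay there. On the arrays of set 1 alone 18 were middle and 6 near background, and on those of set 2 alone 15 and 9.

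**Figure D1:**
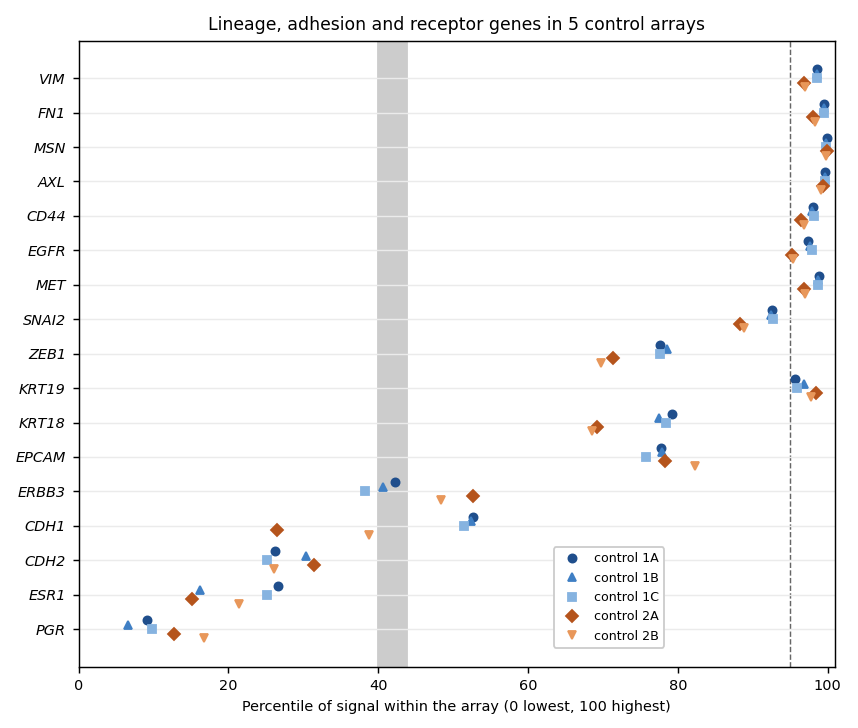
Percentile of the signal within each array (x axis, 0 lowest to 100 highest) for 17 lineage, adhesion and receptor genes, with 1 point for each of the 5 control arrays. The gray band spans the background limits of the 5 arrays (40.0 to 43.9) and the dashed line is the 95th percentile. VIM, FN1, MSN, AXL, CD44, EGFR, MET and KRT19 lie right of the dashed line on all arrays, ESR1, PGR and CDH2 left of the band, and CDH1 on both sides of it.

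Luminal and hormone receptor genes were spread over the classes much as all genes were. Of 22 measured, 1 was high, 11 middle, 7 near background and 3 crossing. Over all genes the shares were 3.67% high, 44.2% middle, 32.9% near background and 19.2% crossing. KRT19, a keratin of simple epithelia, was the high member, at 95.7, 96.8 and 95.9 in set 1 and 98.5 and 97.8 in set 2. KRT18 lay at 79.2, 77.4, 78.4, 69.3 and 68.5 and its partner KRT8 at 61.1, 60.6, 60.3, 63.9 and 66.5. Keratin transcripts were thus measured together with VIM. PGR, the progesterone receptor, lay at 9.08, 6.62, 9.81, 12.7 and 16.8, and with ESR1, FOXA1, the pioneer factor of luminal cells, and GREB1 (23.1 and 16.9), an estrogen target, was near background on every array. SPDEF (87.1 and 94.6), an ETS factor of luminal cells, TFF1 (88.5 and 96.0), a secreted trefoil peptide, and XBP1 (88.8 and 86.8) ranked well above background in both sets. Of 15 basal and myoepithelial genes, 2 were high (ITGA6 and SFN), 4 middle, 3 near background and 6 crossing. KRT5, the keratin most used to mark basal cells, was near background at 8.85, 13.9, 12.8, 29.5 and 23.4, and KRT14 lay at 21.7, 23.1, 33.1, 43.3 and 48.4, crossing the limit.

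Of 28 receptor tyrosine kinases, 3 were high, 8 middle, 13 near background and 4 crossing. The high members were AXL, MET (98.8 and 96.9), the receptor of hepatocyte growth factor, and EGFR. ERBB3, the kinase-impaired partner of ERBB2, lay at 42.2, 40.6, 38.2, 52.6 and 48.4, around the limit, and ERBB4 was near background on every array. Of 10 EGF family ligands, none was high, 4 were middle and 5 near background. The middle ones were EREG (84.2 and 87.3), HBEGF (83.3 and 87.8), TGFA (80.0 and 77.0) and NRG1 (78.0 and 66.3), of which the first 3 bind EGFR. Downstream of these receptors, 5 of 20 RAS and MAPK genes were high, 12 middle and none near background. FOSL1, an AP-1 subunit, lay at 98.6, 99.05, 98.9, 99.6 and 99.6. DUSP6, which dephosphorylates ERK, had means of 98.97 and 98.9, and the feedback inhibitors SPRED1 and SPRY2 were also in the high class.

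Cytokines and chemokines held no high member among 29, with 9 middle, 9 near background and 11 crossing. TGFB2 (97.2 and 93.0) and TGFB1 (91.6 and 94.5) ranked highest by mean, and IL6 lay at 58.5, 57.9, 57.6, 52.8 and 54.4. CXCL8, the neutrophil chemokine interleukin 8, lay at 51.0, 40.6, 45.8, 44.2 and 50.0. IL2, IL10 and IFNG, products of leukocytes, were near background on every array. CXCR4, the receptor of CXCL12, lay at 85.2, 85.7 and 85.2 in set 1 and at 66.6 and 65.9 in set 2, far apart between sets and close within them.

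Of 22 antigen presentation and checkpoint genes, 7 were high, 10 middle, 1 near background and 4 crossing. B2M, the shared light chain of class I molecules, lay at 99.5, 99.5, 99.5, 99.3 and 99.3. CD274, the checkpoint ligand PD-L1, lay at 84.5, 83.7, 84.6, 79.1 and 77.0. HLA-DRA (99.1 and 98.0), the class II alpha chain, was high, and HLA-DRB1 (14.5 and 14.5), its beta chain, was near background. HLA-DRA has 7 probe sets and HLA genes are highly polymorphic, so the place of a single HLA probe set is uncertain. HLA-B lay at 51.8, 55.8, 50.3, 24.4 and 27.0.

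Of 18 stem cell associated genes, 2 were high, 5 middle, 5 near background and 6 crossing. The CD44 rank above stood beside CD24, the surface marker commonly read against it, at 87.3, 86.9, 86.1, 86.3 and 87.9, close between the sets. PROM1, ALDH1A1 and NANOG were near background on every array, while MYC (90.8 and 95.4) and SOX9 (91.9 and 93.2) ranked near the top of the list.

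The genes with the highest ranks of all came from the mitochondrial genome. ND2, a subunit of complex I, was the highest probe set with 1 gene symbol on every array (percentile 100). By the lowest percentile over the 5 arrays, the 15 leading genes were ND2, COX1, CYTB, ND1, COX2, CST4, ND5, SNORD13, TUBB, TMSB10, SNORD46, HNRNPA1P10, ATP5F1B, ANXA2P2 and ND3, of which 7 are mitochondrially encoded subunits of the respiratory chain. All 8 mitochondrially encoded genes measured were high, ND6 among them with means of 99.2 and 99.1. HNRNPA1P10 and ANXA2P2 are pseudogenes of highly expressed genes and may share signal with them. TUBB, the beta-tubulin gene, has 7 probe sets, and TMSB10 encodes an actin-binding thymosin.

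CST4, which encodes the secreted protease inhibitor cystatin S, was the leading nuclear protein-coding gene, at 99.97, 99.97 and 99.97 in set 1 and 99.98 and 99.99 in set 2. Its log2 signals were 10.2, 10.4 and 10.4 in set 1 and 11.5 and 11.5 in set 2, on scales that are not shared. Its close paralog CST2 lay at 96.2, 97.3, 97.8, 99.4 and 99.5 and CST1 at 24.7, 27.0, 23.9, 51.0 and 50.2. Near-identical copies can share probes, so the split of signal among these 3 genes is uncertain. CST3, cystatin C, of which most cells make some, lay at 94.7, 95.8, 96.1, 97.7 and 97.7. All 4 cystatin genes were higher in rank on both arrays of set 2 than on any array of set 1.

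Because the series concerns lactate dehydrogenase, the enzyme and its carriers are given array by array. The list names 16 genes, of which 14 had a value, and SLC16A1 and SLC16A3 were not analysed here. BSG, basigin, the chaperone that brings monocarboxylate carriers to the surface, lay at 99.2, 99.3, 99.3, 99.4 and 99.2 and was the high member of the 14 measured. LDHA, the muscle-type subunit, lay at 91.9, 91.7 and 91.8 in set 1 and 80.0 and 78.5 in set 2. LDHB, the heart-type subunit, lay at 87.5, 87.0 and 87.6 in set 1 and 93.4 and 93.0 in set 2. The groups did not overlap in either gene, and LDHA had the higher and LDHB the lower percentile in set 1, the reverse of set 2. LDHC, the testis subunit, was near background on every array at 7.09, 11.4, 10.7, 11.7 and 9.79. LDHD, which acts on D-lactate, lay at 43.0, 47.7, 46.2, 49.6 and 45.9, below the limit on control 1A and above it on the other arrays. MPC1, at 81.2, 81.4, 82.1, 86.99 and 85.1, and MPC2, at 71.6, 74.3, 73.3, 77.5 and 79.04, form the mitochondrial pyruvate carrier and were middle. EMB, embigin, another chaperone of carriers, was middle at 67.6, 70.7, 67.1, 72.00 and 72.7. In these 3 genes the arrays of set 2 lay above those of set 1. SLC16A7, a monocarboxylate carrier, was middle at 57.8, 57.2, 58.7, 48.8 and 45.7, and SLC5A12, a sodium-coupled lactate carrier, at 50.6, 46.3, 45.6, 46.9 and 45.7. SLC16A8, a monocarboxylate carrier of the retinal pigment epithelium, lay at 25.5, 28.2, 50.6, 41.3 and 38.1 and had the widest spread within set 1 of the 14 genes, 34.8 ± 13.8 (SD, n = 3). LDHAL6A lay at 49.8, 31.7, 38.0, 27.1 and 25.4, crossing the limit through control 1A. LDHAL6B, at 32.2, 13.4, 9.81, 9.74 and 24.8, and SLC5A8, a sodium-coupled carrier, at 6.24, 4.42, 7.13, 14.01 and 14.8, were near background on every array.

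**Figure D2:**
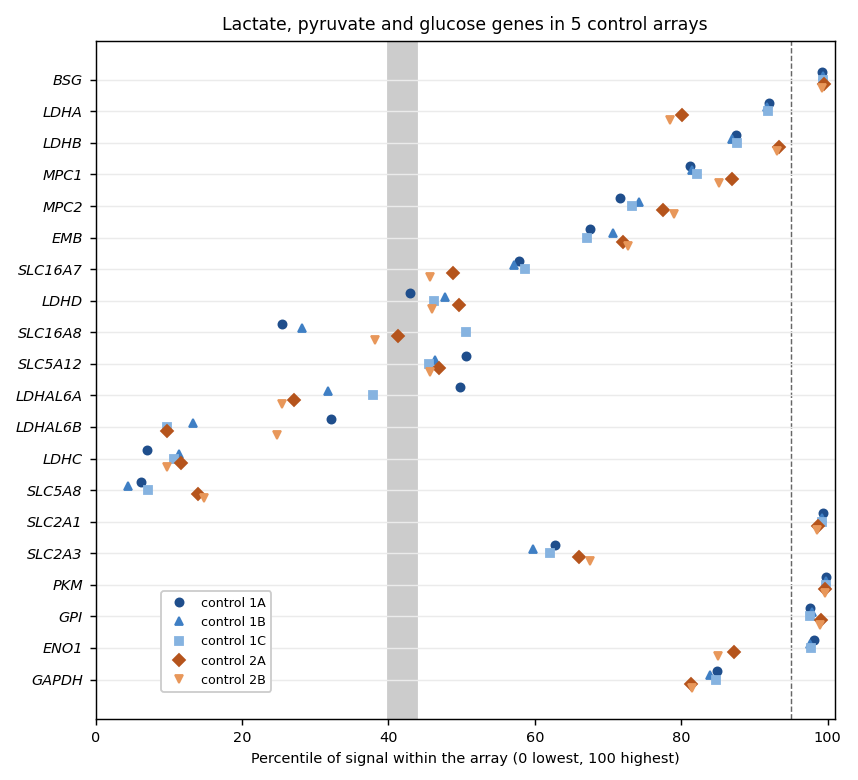
Percentile of the signal within each array (x axis) for the 14 lactate and pyruvate genes and for 6 genes of glucose entry and glycolysis, with 1 point for each of the 5 control arrays. The gray band spans the background limits and the dashed line is the 95th percentile. LDHA falls near 92 on the arrays of set 1 and near 79 on those of set 2, LDHB near 87 and near 93, and BSG, SLC2A1 and PKM lie above 98 on all 5.

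Glucose entry and glycolysis were carried by middle and high ranks. SLC2A1, the main glucose transporter of dividing cells, lay at 99.3, 99.3, 99.2, 98.6 and 98.6, and was the high one of 14 glucose transporters, of which 6 were middle, 5 near background and 2 crossing. SLC2A4, the insulin-responsive transporter, and SLC2A2, that of liver, were near background. Of 23 glycolytic genes, 2 were high, 14 middle, 3 near background and 4 crossing. PKM, pyruvate kinase, lay at 99.7, 99.8, 99.7, 99.7 and 99.7 and GPI, glucose-6-phosphate isomerase, had means of 97.7 and 98.98. The 3 near background were PKLR, HK3 and PGK2, the forms of red cells and liver, of leukocytes and of testis. GAPDH lay at 84.8, 83.9, 84.8, 81.4 and 81.5. ENO1, enolase, lay at 98.2, 97.5 and 97.7 in set 1 and 87.2 and 85.0 in set 2 and so crossed the limit for high. TXNIP, an arrestin that holds back glucose uptake, lay at 99.5, 99.6, 99.5, 99.5 and 99.4, and HIF1A, the hypoxia factor that induces glycolytic genes, at 99.8, 99.8, 99.8, 99.7 and 99.7.

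Mitochondrial metabolism was represented as well. Of 23 genes of pyruvate entry and the tricarboxylic acid cycle, 3 were high and 17 middle, with medians of 86.4 and 87.4, and PDHA2 (13.7 and 14.7), the testis form of a pyruvate dehydrogenase subunit, was the one near background. Of 69 nuclear-encoded respiratory chain subunits, 6 were high, 45 middle, 5 near background and 13 crossing.

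Genes of dividing cells had medians far above those of all genes, though most of them were in the middle class. Of 39 cell division genes, 7 were high, 26 middle, 6 crossing and none near background, with medians of 91.3 and 89.96. PCNA, the sliding clamp of DNA polymerase, lay at 99.5, 99.6, 99.5, 98.8 and 98.8, TOP2A at 99.3, 99.05, 99.1, 97.4 and 97.8, and MKI67, the Ki-67 antigen, at 96.9, 97.4, 96.9, 92.2 and 90.3. Among 15 CDK inhibitors and p53 pathway genes, none was high, 11 were middle and 3 near background. Those 3 were CDKN2A (25.9, 27.2, 24.7, 19.01 and 18.5), CDKN2B (19.3, 20.2, 18.7, 22.1 and 25.0) and MTAP (14.2, 8.85, 14.5, 28.2 and 28.7). They are neighbours on chromosome 9p21, a region that tumours often delete, and each was below the limit on every array. RB1 (91.4 and 89.4), CDKN1B (86.2 and 88.6) and GADD45A (93.3 and 92.8) were middle.

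Structural and housekeeping lists had medians above the 49.8 and 50.0 of all genes in set 1 and set 2. They ran from metallothioneins and ferritins (54.2 and 65.3) to chaperone genes (97.9 and 98.5). Only in the chaperone list were most members in the high class. Of 20 chaperone genes, 13 were high, 4 middle and 3 crossing, among them CALR (99.9 and 99.7) and HSP90AB1 (99.8 and 99.8). Of 26 actin cytoskeleton genes, 10 were high, 15 middle and 1, CFL1, crossing. Of 35 proteasome subunits, 14 were high and 11 middle, and PSMB11 (16.6 and 9.3), the thymus form, and PSMA8 (18.9 and 26.0), that of testis, were near background. Of 56 cytosolic ribosomal proteins, 11 were high and 37 middle, and of 17 translation factors, 4 and 12. Of 20 redox genes and NRF2 targets, 7 were high and 10 middle, led by TXN (99.8 and 99.9), thioredoxin. Of 28 integrins and matrix genes, 6 were high, 15 middle, 2 near background and 5 crossing, led by ITGA2 (99.6 and 98.1) and ITGA3 (99.4 and 98.4), which pair with ITGB1, and by TIMP1 (98.98 and 99.7). Of 28 annexins and S100 proteins, 5 were high and 8 near background. Of 11 metallothioneins and ferritins, 2 were high, FTL (99.9 and 99.9) and MT1X (98.97 and 99.6), while MT1G (3.7 and 10.8) was near background.

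Most fibroblast, liver, neuron and germ cell markers were near background on every array, while the leukocyte and endothelial lists were mixed. Over all genes, 32.9% were near background. Of 27 leukocyte genes, 13 were near background and 11 crossed the limit, with medians of 29.7 and 26.7. PTPRC lay at 9.20, 8.90, 8.33, 1.58 and 7.03. CD68, a lysosomal protein used to mark macrophages, was the high one at 99.1, 99.1, 99.1, 99.5 and 99.4. CD8A (51.9, 55.1, 57.6, 55.9 and 55.3), of cytotoxic T cells, and CD79B (52.95, 49.6, 51.8, 56.0 and 52.8), of B cells, were middle. Of the other myeloid markers, CD14, CD163 and CSF1R crossed the limit or were near background. On the arrays of set 1 alone 17 of the 27 were near background. Of 14 fibroblast genes, 9 were near background and 2 middle, with DCN, decorin, at 7.1 and 8.2. Of 11 endothelial genes, 4 were near background and 4 middle, and ESAM, a junction protein, lay at 93.9, 93.8, 94.1, 94.4 and 94.5. Of 16 liver secreted protein genes, 15 neuron genes and 18 germ cell genes, 11, 9 and 12 were near background and none was high. MAGEA1 (53.9 and 55.5) and SSX1 (52.9 and 66.8), cancer-testis antigens, were among the 3 germ cell genes of middle rank. Of 358 olfactory receptors, 312 were near background, a share that follows from their use as the floor, while of 26 taste receptors 15 were, and of 88 keratin-associated proteins 59.

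**Figure D3:**
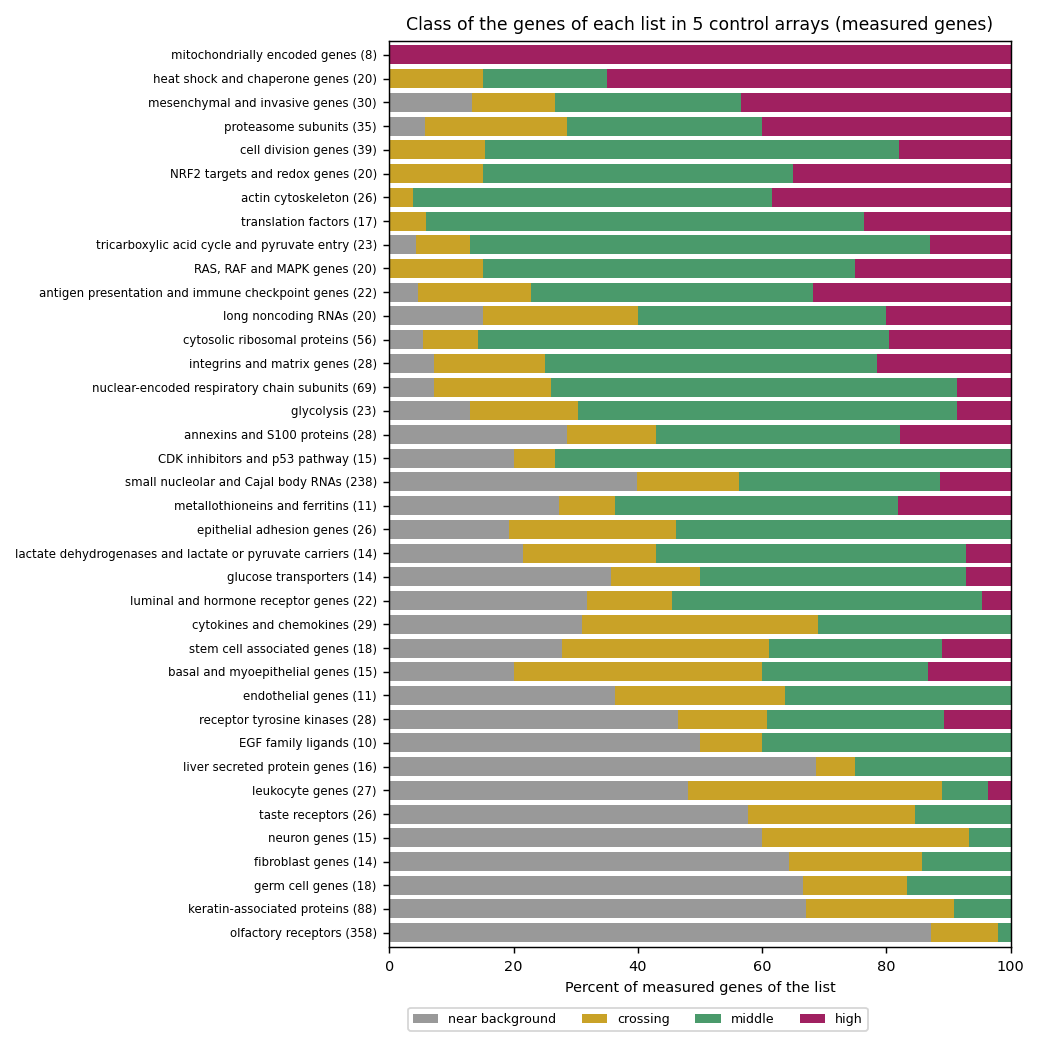
Share of the measured genes of each list (y axis, number measured in parentheses) that were near background, crossing, middle or high over the 5 control arrays (x axis, percent). Mitochondrially encoded genes were all high, chaperone genes high for 13 of 20 and mesenchymal genes for 13 of 30, and olfactory receptors, which set the floor, were near background for 312 of 358.

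Kinds of RNA differed in class. Protein-coding genes made up 94.4% of the high class (776 genes) and 76.0% of all genes. Of 1989 long noncoding RNA genes, 6 (0.302%) were high and 55.8% near background. The high ones, named after their values were seen, were MALAT1, NORAD, SNHG32, ZFAS1, LINC01347 and LOC100287834. In the list of 20 long or regulatory noncoding RNAs, RMRP (99.9 and 99.9), the RNA of RNase MRP, and RN7SK (98.0 and 99.6), which holds the elongation factor P-TEFb, were also high, and HOTAIR (13.7 and 17.3) was near background. Of 213 small nucleolar RNA genes, 27 (12.7%) were high, and of 16 small nuclear RNA genes, 4 (25%). In the list of 238 small nucleolar and Cajal body RNAs, which guide chemical changes of other RNAs, 27 were high, 77 middle, 95 near background and 39 crossing.

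Of 1018 miRNA genes, 1 was high (MIR4737, at 98.8, 98.8, 99.1, 99.4 and 99.4), 186 were middle, 636 near background and 195 crossing. Their probe sets read the hairpin locus and not the mature miRNA. The genes below were chosen after their values were seen, because the miR-200 family represses ZEB1 and ZEB2 and keeps cells epithelial, and because miR-221, miR-222 and miR-21 are raised in many carcinomas. The mature forms are from RefSeq (GRCh38.p14), with the seed, bases 2 to 8, in capitals, and fall into 4 seed groups: miR-200a with miR-141, miR-200b with miR-200c and miR-429, miR-221 with miR-222, and miR-21 alone.
hsa-miR-200a-3p: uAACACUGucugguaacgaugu
hsa-miR-141-3p: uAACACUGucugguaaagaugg
hsa-miR-200b-3p: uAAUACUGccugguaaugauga
hsa-miR-200c-3p: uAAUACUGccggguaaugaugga
hsa-miR-429: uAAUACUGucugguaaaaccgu
hsa-miR-221-3p: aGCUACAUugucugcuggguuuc
hsa-miR-222-3p: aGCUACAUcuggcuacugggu
hsa-miR-21-5p: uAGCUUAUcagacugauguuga
MIR200A lay at 11.8, 17.6, 18.0, 16.1 and 7.3, MIR200C at 1.9, 2.2, 4.3, 10.6 and 8.3, MIR141 at 21.7, 23.1, 20.9, 22.2 and 30.3, and MIR429 at 9.6, 15.1, 13.2, 13.6 and 14.1. These 4 were near background on every array, and MIR200B, at 32.7, 41.0, 44.7, 24.3 and 29.5, crossed the limit on arrays of set 1. MIR221 lay at 89.5, 88.9, 89.1, 77.5 and 79.3, MIR222 at 84.6, 83.7, 82.7, 81.7 and 81.3, and MIR21 at 97.7, 96.3, 96.1, 93.7 and 94.0. Of the hairpin loci with the seeds AACACUG and AAUACUG, all but MIR200B were thus near background, as were 636 of all 1018 miRNA genes. ZEB1 and ZEB2 were middle in the same arrays, and whether these loci act on them was not tested. The loci with the seeds GCUACAU and AGCUUAU were far above the limit.

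The classes differed in promoter sequence, which the ranking did not use. Promoters of 300 bases (250 before and 50 after the start) were matched in RefSeq for 13840 protein-coding genes. The ratio of observed to expected CpG, with a limit of 0.6 commonly used for CpG islands, was over the limit in 92.1% of 658 promoters of high genes, 83.1% of 7373 middle, 59.4% of 2400 crossing and 34.9% of 3409 near background, beside 67.5% of the 13840 and 48.9% of all 27305 promoters of the table. With classes from the arrays of set 1 alone it was over the limit in 92.3% of high and 36.5% of near background promoters. Median GC content was 65.3% for high, 65.7% for middle and 53.3% for near background. Motifs were searched on both strands, and none of those searched contains another. TATAAA, the motif of the TATA box, was found in 6.84% of high, 5.28% of middle and 18.0% of near background promoters, beside 9.20% of the 13840 matched and 11.95% of all 27305. GGGCGG, the core of a GC box, was found in 73.6%, 71.1% and 34.8%, beside 60.1% and 44.6%. CCGGAAG, of the ETS type, was found in 26.3%, 19.3% and 4.37%, beside 14.5% and 10.7%. CCAAT was found in 38.1%, 36.7% and 36.9%, beside 36.3% and 35.7%, with little difference between classes. GCATGCGC, of the NRF1 type, was found in 6.99%, 5.41% and 1.496%, beside 4.18% and 3.27%. TGANTCA, of the AP-1 type, was found in 5.62%, 4.14% and 8.74%, beside 5.72% and 7.76%, so that its share among high genes was that of the matched promoters. CACCTG, the E-box read by ZEB and SNAI factors, was found in 13.7%, 18.6% and 21.6%, beside 19.7% and 20.6%. GGGCGG was among the motifs of VIM, CD44 and EGFR, and CCAAT was the motif of ESR1. A match is a description of letters and not of a bound site.

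**Figure D4:**
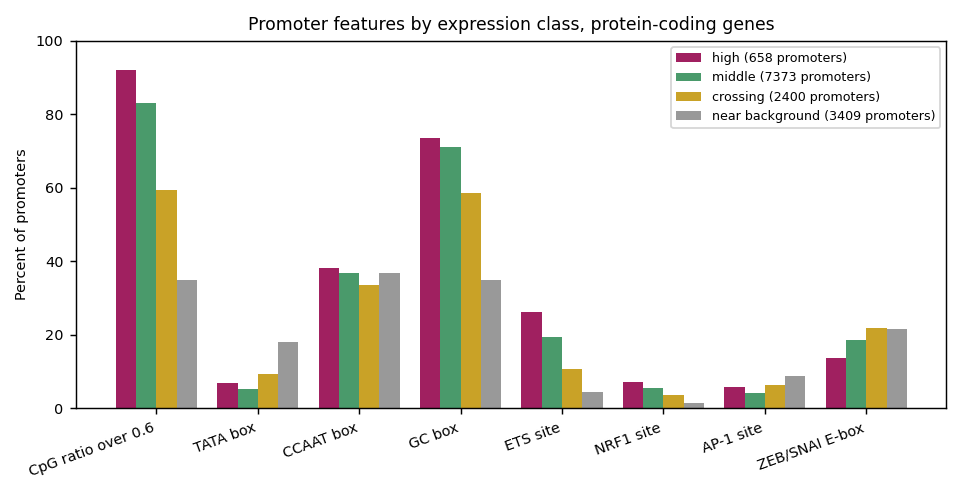
Percent of promoters (y axis) with a CpG ratio over 0.6 or with a motif on either strand (x axis, with the letters of each motif as given in the text), for protein-coding genes by class over the 5 control arrays. The CpG ratio was over 0.6 in 92.1% of high and 34.9% of near background promoters, and the TATA box was found in 6.84% and 18.0%.

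The ranks were close within sets and less close between them. Across genes, which are not independent replicates, log2 signals of 2 arrays correlated with Pearson's r of 0.991 to 0.993 within set 1, 0.990 within set 2 and 0.952 to 0.961 between sets, and Spearman's rho was 0.976 to 0.983, 0.983 and 0.937 to 0.949. The median distance of a gene between 2 arrays was 1.31 to 1.56 points within set 1, 2.29 within set 2 and 4.88 to 5.31 between sets. In pairs of set 1 arrays, 21.5% to 24.9% of probe sets had the same deposited value on both, against 0.177% in set 2. The closeness within set 1 may therefore partly reflect repeated values. Between sets it was 0.547 to 0.608 for high genes, where ranks are bounded by 100, 4.10 to 4.39 for middle genes and 5.27 to 6.33 for genes near background. The top 5% of the 2 sets shared 894 of 1120 genes (79.8% of each) and the top 10% shared 1872 of 2239 (83.6%). The means of the sets lay within 1 point for 3125 genes (13.96%), within 5 points for 11759 (52.5%), within 10 for 17656 (78.9%) and within 20 for 21606 (96.5%). No gene was high in all arrays of one set and near background in all of the other, while 166 were high in set 1 and middle in set 2 and 151 the reverse. At the centre of the ranking, TREH (51.0, 49.9, 48.6, 50.4 and 50.7), CTSK (49.3, 50.5, 49.4, 50.6 and 48.3) and SELPLG (50.3, 50.2, 48.9, 49.4 and 49.2) lay nearest 50 with little spread. They encode trehalase, the osteoclast protease cathepsin K and a selectin ligand of leukocytes, so that the centre of the ranking lies among genes with low signal.

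**Figure D5:**
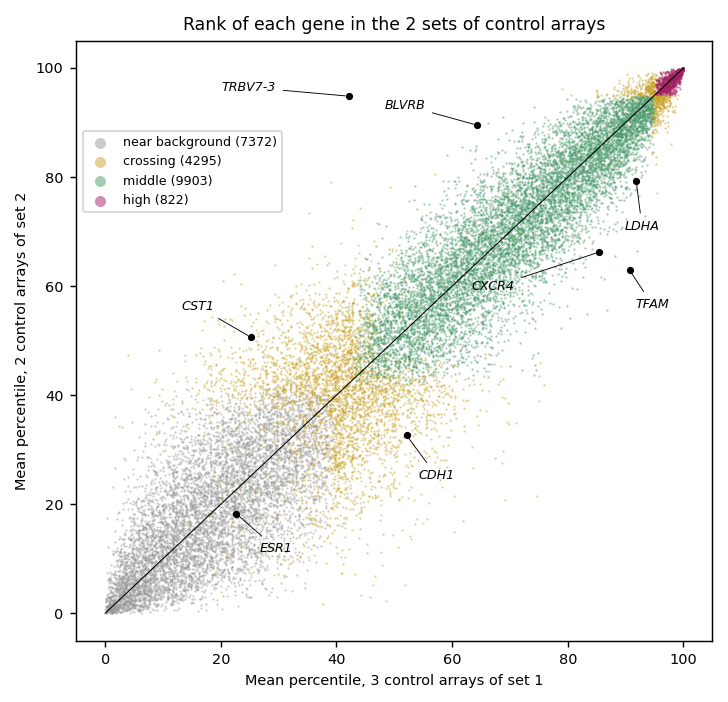
Mean percentile of each of 22392 genes over the 3 control arrays of set 1 (x axis) against that over the 2 control arrays of set 2 (y axis), coloured by class, with the line of equal rank. Most points follow the line and are tightest at the upper end, and TRBV7-3 and BLVRB lie above it while TFAM, CXCR4 and LDHA lie below.

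The controls of set 2 were compared with those of set 1 with limma on quantile-normalized log2 signals, as the 1 contrast within the untreated arrays. The thresholds of the study's methods were used to call a probe set, namely a fold over 2 with a Benjamini-Hochberg adjusted p under 0.1 and a raw p under 0.05. The set, the scale of its values and the conflicting source names cannot be told apart in it. Of 53617 probe sets, 3662 (6.83%) were called, 1699 (3.17%) higher and 1963 (3.66%) lower in set 2, and of 22392 genes, 1295 (5.78%), 787 higher and 508 lower. The median log2 difference over all genes was 0.041, and 0.854 on the deposited values, which share no scale. All 787 genes called higher and 506 of the 508 called lower had the same sign on the deposited values, and all 508 on percentiles and after median centring. Quantile normalization keeps the order of signals within an array, so the signs on percentiles were largely set in advance. So were those of the genes called higher on the deposited values, where set 2 lies above set 1. By class, the calls held 38 of 822 high genes, 821 of 9903 middle, 434 of 4295 crossing and 2 of 7372 near background. The classes come from the same arrays, and crossing genes are those that change class between them. This split is therefore partly set by definition. By kind of RNA, the calls held 34 of 213 small nucleolar RNA genes (27 higher and 7 lower, 15.96%) and 7 of 16 small nuclear RNA genes (all higher, 43.8%), against 6.04% of protein-coding and 3.22% of long noncoding RNA genes.

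The genes with the largest folds between sets that did not overlap were named by rule. TRBV7-3, a variable segment of the T-cell receptor beta locus, lay at 40.6, 44.6 and 41.2 in set 1 and 94.3 and 95.4 in set 2, a log2 difference (set 2 minus set 1) of 4.70 (SE 0.10, limma adjusted p = 0.0028). BLVRB, biliverdin reductase B, lay at 65.0, 64.1 and 63.9 against 89.9 and 89.2, a log2 difference of 2.43 (SE 0.074, limma adjusted p = 0.0028). MICOS13, of the inner membrane of mitochondria, differed by 2.31, and SNORD121A, REXO1L1P, RN5S186, MIR622 and STH by 2.93, 2.57, 2.28, 2.27 and 2.25. All were higher in set 2. STH passed in 2 of the 5 fits that left out 1 array. TFAM, which packs and transcribes mitochondrial DNA, lay at 90.8, 90.5 and 90.7 in set 1 and 61.8 and 64.1 in set 2, a log2 difference of -2.59 (SE 0.084, limma adjusted p = 0.0028). VEZT, a junction protein, and TIA1, an RNA-binding protein of stress granules, differed by -2.47 and -2.36. MIR579, GUSBP3, MIR573, RPS15AP10 and RNU7-35P differed by -2.97, -2.66, -2.51, -2.44 and -2.37. All were lower in set 2.

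Of 14 lactate genes 1 was called and of 23 glycolytic genes 2, shares near the 5.78% of all genes. LDHA had a log2 difference of -1.35 (SE 0.078, limma adjusted p = 0.0028) and was called lower in set 2, whereas LDHB differed by 0.83 (SE 0.074, adjusted p = 0.0039), short of the fold asked for. ENO1 was lower by a log2 difference of -2.03 (SE 0.13, adjusted p = 0.0029) and ALDOC higher by 1.42, a call that passed in 3 of the 5 fits that left out 1 array. At an unadjusted p under 0.05, with no fold asked for, 11 glycolytic genes were higher and 5 lower. Of all 53617 probe sets, 22082 passed that limit, so list counts at an unadjusted p are to be read beside a broad difference between the sets. Of 69 nuclear-encoded respiratory chain subunits, 9 were higher and none lower in set 2, with COX6B1 at 1.86 and NDUFB11 at 1.63 (at an unadjusted p under 0.05, 35 higher and 10 lower), while limma called none of the 8 mitochondrially encoded genes (2 at an unadjusted p under 0.05). Of 20 redox genes, 4 were higher (GPX4 1.51, PRDX2 1.37, NQO1 1.33 and GSTP1 1.06) and none lower (12 and 2 at an unadjusted p under 0.05). Of 20 RAS and MAPK genes, 4 were higher (EGR1 1.39, PHLDA1 1.18, MAPK3 1.13 and FOS 1.05), the first and last of them immediate early genes.

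The calls in the other lists are given with the 5.78% of all genes as the share to set them against. Of 28 integrins and matrix genes, TIMP3 (-1.59), LAMB1 (-1.34), ITGA2 (-1.24), TNC (-1.21) and LAMC1 (-1.06) were lower in set 2 and MMP3 (1.17) and TIMP1 (1.06) higher. Of 30 mesenchymal genes, 2, near that share, were called, FN1 (-1.06) and CAV1 (-1.08), both lower, and VIM, at -0.69 (SE 0.067, limma adjusted p = 0.0045), did not reach the fold and was not lower on the deposited values. CXCR4 was lower by a log2 difference of -1.65 (SE 0.072, adjusted p = 0.0028). Of 22 luminal genes, TFF1 (1.24), GATA3 (1.10) and SPDEF (1.09) were higher and none lower, and of 26 epithelial adhesion genes CLDN3 (1.25) and JUP (1.09) were higher, again near the share of all genes. CDH1 differed by -0.77 (SE 0.13, adjusted p = 0.017) and was not called. Of 39 cell division genes, MKI67 (-1.16), NDC80 (-1.17) and KIF20A (-1.05) were lower and RRM2 (1.14) higher, and of 56 ribosomal proteins 5 were higher and 2 lower, from RPL36 at 2.24 to RPL7 at -1.41. Limma called none of 20 chaperone genes and none of 14 glucose transporters. Of these, 11 and 7 passed an unadjusted p under 0.05, as did 22082 of all 53617 probe sets. Of 26 taste receptors, 5 were lower, TAS2R4 by a log2 difference of -2.11.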

How the data were processed

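RNA of MDA-MB-231 cells was hybridised to GeneChip Human Gene 2.1 ST arrays. The deposited log2 signals are the authors' own, exported from Expression Console of Affymetrix. The submitters' processing notes also name Transcriptome Analysis Console. Neither the summarization nor the normalization method is stated (not given in the sources used here), and the log2 unit was read from the range of the values. Groups followed title and treatment tag. The members, lists and tests were chosen with earlier results of these data known.

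Percentiles were computed within each array over 23866 probe sets with 1 symbol in the platform annotation, ties averaged, in Python 3.11.15 with pandas 2.3.3. Symbols were checked against RefSeq by gene ID for 21168 of 22392 genes. Only controls entered the main test, a limma 3.58.1 fit (lmFit and eBayes, R 4.3.3) after quantile normalization, which was tested on simulated data. An alternative fit, given in the last section, took all 9 arrays as 4 groups and so included the GNE-140 arrays. Lists are described by counts and medians, with no set test.

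Named were the 5 markers VIM, CD44, EGFR, CDH1 and ESR1, the 15 genes highest by their lowest percentile, the lactate genes, up to 4 highest and 3 lowest genes of each list, the 8 genes called higher and 8 lower with the largest folds and no overlap, and 3 genes nearest 50. Other genes were named after their values were seen. Arrays have no depth, and their number limits the precision.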

Additional observations from a re-analysis of the deposited data

Results flagged for a closer look

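Probe sets without a gene symbol entered no class or list of the report, and they carried signal. Of 27899 such probe sets, 5866 (21.0%) lay above the background limit on all 5 control arrays, and 888 (3.18%) reached the percentile of the high class on all 5. What drew attention was a signal in data that the description leaves out. Which transcripts they measure was not analysed here.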

How the results depend on the processing

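With the 90th percentile as the limit for high, 1772 genes were high on every array in place of 822. With keratin-associated protein and taste receptor probe sets as the floor, 12161 genes were near background in place of 7372, and with the 99th percentile of olfactory receptor probe sets 10742. The top 10% of the sets shared 1872 genes, where the top 5% shared 894. Between the sets, 17521 probe sets were called on the deposited values as they are, 98.1% of them higher in set 2, and 9284 on percentiles with a threshold of 10 points, 51.6% higher, in place of 3662 with 46.4% higher. On the deposited values the sets were compared without a common scale. Leaving out each array in turn gave 827 to 853 high genes, 7499 to 7722 near background, 884 to 904 shared in the top 5% and 3326 to 4140 probe sets called. Of the other alternatives, 4041 probe sets were called after median centring (39.7% higher) and 3815 with all 9 arrays fitted as 4 groups. With only the 22862 probe sets above the olfactory receptor limit, 3034 were called, a larger share than the 3662 of 53617 in the main fit. Arrays of the same letter did not deviate together (r = -0.0079 for A and 0.0014 for B), and the fit with the letter as a replicate block called 4206. Taking the lowest-ranking probe set of a gene gave 791 high and 7562 near background, and ranks over all probe sets 999 and 7371. Leaving out 1 array moved CDH1 in set 2 from a mean percentile of 32.6 to 26.5 or 38.7. Taking only the 3 control arrays of set 1, a choice made after the data were seen, gave 1035 high and 8306 near background. Genes near background, and those at the many tied values of set 1, have an order that these arrays resolve poorly.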
